A study of Mus musculus with 36 samples.

Results

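The collagens Col3a1 and Col4a2, the collagen chaperone Fkbp10, the fibulins Fbln1 and Fbln2, and the CCN proteins Ccn1 and Ccn2 are 7 genes of the extracellular matrix. The names were chosen by the knockout against wild-type differences of their peaks in these same tables, and every peak annotated to them by gene symbol was then taken, in the tables of 3 histone marks. They held 20 of 8115 listed H3K9ac peaks, 2 of 5374 listed H3K9me3 peaks and 1 of 469 listed H3K4me3 peaks. The 7 genes are part of 9822 with a listed peak of any mark. The cells were primary aortic smooth muscle cells, from mice with a global knockout of CSE (cystathionine gamma-lyase, an enzyme that makes hydrogen sulfide) or from wild-type C57BL/6N mice. Both genotypes received 1 µM angiotensin II, a vasoconstrictor peptide, for 24 hours, and no group without it is among the samples. Each mark had 3 immunoprecipitated and 3 input libraries per genotype. The labels do not say whether these came from separate animals or cultures, nor the age of the mice.

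Type III collagen forms fibrils in the aortic wall together with type I, and type IV collagen forms the basement membrane around each smooth muscle cell. Procollagen chains fold in the endoplasmic reticulum with the help of chaperones such as Fkbp10. Fibulins bind elastic fibres and basement membranes, and the CCN proteins are secreted regulators of adhesion and matrix production whose genes respond quickly to mechanical and growth factor signals. H3K9ac and H3K4me3 are found at active promoters, and H3K9ac also at enhancers, whereas H3K9me3 is found in heterochromatin.

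The tables hold the authors' group means and their knockout against wild-type test, with no value per sample, so each value below is 1 group value with no spread of its own. Levels are the concentration values of each genotype (Conc in the headers), read here as log2 mean normalised reads per peak, the usual meaning of that name, and fold changes are knockout over wild type. The authors' p-values measure the spread between their libraries, which may be technical, and the depth of each library is unknown. Only selected peaks are listed (p of 0.05 by the title of the tables), and H3K9ac p-values run between 0.000101 and 0.0499 in the authors' deposited table. A gene with no listed peak may therefore carry the mark unchanged, or may have a peak with p below 0.000101. Peaks with p outside this range are not analysed here, so every share by p or FDR is a share of listed peaks only. In bulk chromatin, fewer marked cells and less of the mark per cell cannot be told apart.

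Every listed H3K9ac peak of the matrix genes was lower in the knockout cells: 20 of 20 peaks, over all 7 genes. Of all listed H3K9ac peaks 77.2% were lower, and of those annotated to promoters, where 11 of the 20 lie, 79.3% were. Among peaks with p under 0.01 the share lower was 76.1%, and among those with FDR under 0.05 it was 75.8%. By the authors' deposited table, FDR was under 0.05 at 7 of the 20 peaks (35.0%), over 6 genes (all but Ccn1), against 16.6% of all listed peaks. Since these values were known when the genes were chosen, the counts are a description and carry no test. Folds spread from 1.67-fold to 7.46-fold lower, with a median log2 fold change of −1.10 over the 20 peaks, beside −0.98 over all listed peaks and −1.13 over the lower ones, from values of the authors' deposited table. The size of the difference was thus near that of other lower peaks. Fbln2 alone held 12 of the 20 peaks, so peaks are not independent members. The share of lower peaks also varied by chromosome. It was 52.5% on chromosome 11, which holds Fkbp10, against 84% (Fbln2), 85% (Col4a2), 86.4% (Col3a1), 86.7% (Fbln1), 87.2% (Ccn1) and 89.4% (Ccn2) on the chromosomes of the other genes.

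**Figure D1:**
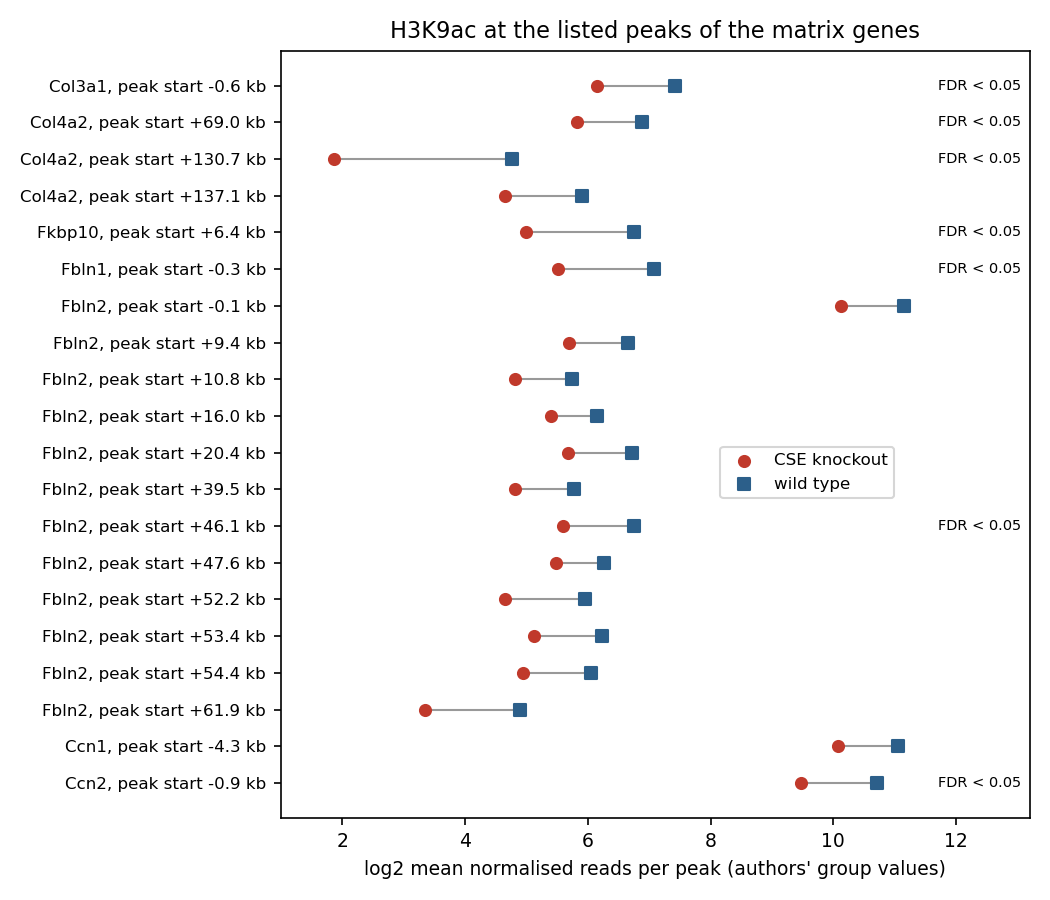
H3K9ac level (log2 mean normalised reads per peak, the authors' group values) in CSE knockout (circles) and wild-type cells (squares) at the 20 listed peaks. Rows name the gene and where the peak starts, in kb from the RefSeq gene start along the gene, and the knockout value lies left of the wild-type value in all 20.

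Col3a1 encodes the chain of type III collagen. Its H3K9ac peak (chromosome 1, 45310987 to 45313020; positions here and below as deposited, taken to be GRCm38) spanned the start of the gene, from 551 bases before to 1482 bases after it. The level was 6.15 in knockout and 7.42 in wild-type cells, or 71.0 against 171 normalised reads, in the authors' deposited table. This is a 2.41-fold lower value in the knockout (log2 fold change −1.27, FDR 0.0251 in the authors' deposited table). The peak was wider than 91.6% of listed H3K9ac peaks or as wide, and its wild-type level ranked at the 86.2nd percentile.

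Fbln1, a fibulin of elastic fibres and basement membranes, also had 1 peak over its start (chromosome 15, 85205673 to 85206812). The authors' deposited table gives 5.51 in knockout and 7.08 in wild-type cells, or 45.6 against 135 normalised reads. That made Fbln1 2.97-fold lower in the knockout (log2 fold change −1.57, FDR 0.0160 in the authors' deposited table), the largest fold among the 5 peaks over a gene start.

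Ccn1 and Ccn2 encode the CCN proteins also known as Cyr61 and CTGF, and their peaks covered most of each gene. The Ccn2 peak (chromosome 10, 24594519 to 24600391) covered 100% of the gene and was wider than 99.4% of listed peaks or as wide. Its level was 9.47 in knockout and 10.71 in wild-type cells, or 709 against 1675 normalised reads, in the authors' deposited table. Ccn2 was thus 2.36-fold lower in the knockout (log2 fold change −1.24, FDR 0.0139 in the authors' deposited table). The Ccn1 peak (chromosome 3, 145647098 to 145654263) covered 95.8% of the gene and ran on to 4278 bases before its start. It held 10.08 in knockout and 11.05 in wild-type cells, or 1082 against 2120 normalised reads, in the authors' deposited table. Ccn1 was 1.96-fold lower in the knockout, and did not pass (unadjusted p 0.0220, FDR 0.213, the authors' deposited table). Whether the 2 CCN genes differ in their response was not tested.

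Fbln2, a second fibulin made by vascular cells, had a broad peak over its start (chromosome 6, 91212353 to 91218639). This peak held 10.12 in knockout and 11.15 in wild-type cells, or 1113 against 2272 normalised reads, in the authors' deposited table. It was 2.04-fold lower in the knockout (log2 fold change −1.03) and did not pass (FDR 0.0883, the authors' deposited table). Its level stood beside those of Ccn1 and Ccn2, at the 99.7th percentile of wild-type values.

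Levels were set side by side per kb of peak, since the peaks differ in width. In wild-type cells the order was 361 normalised reads per kb at the Fbln2 start, 296 at Ccn1, 285 at Ccn2, 119 at Fbln1 and 84.2 at Col3a1, computed from the authors' deposited table. In knockout cells it was 177, 151, 121, 40.0 and 34.9, from the same values in the authors' deposited table. The 5 genes kept 1 order in both genotypes, with the first 3 well above the other 2. Whether neighbours in this order differ beyond their spread could not be tested. In the plot of fold change against wild-type level over all listed peaks, the matrix genes lie along the main band of lower peaks.

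**Figure D2:**
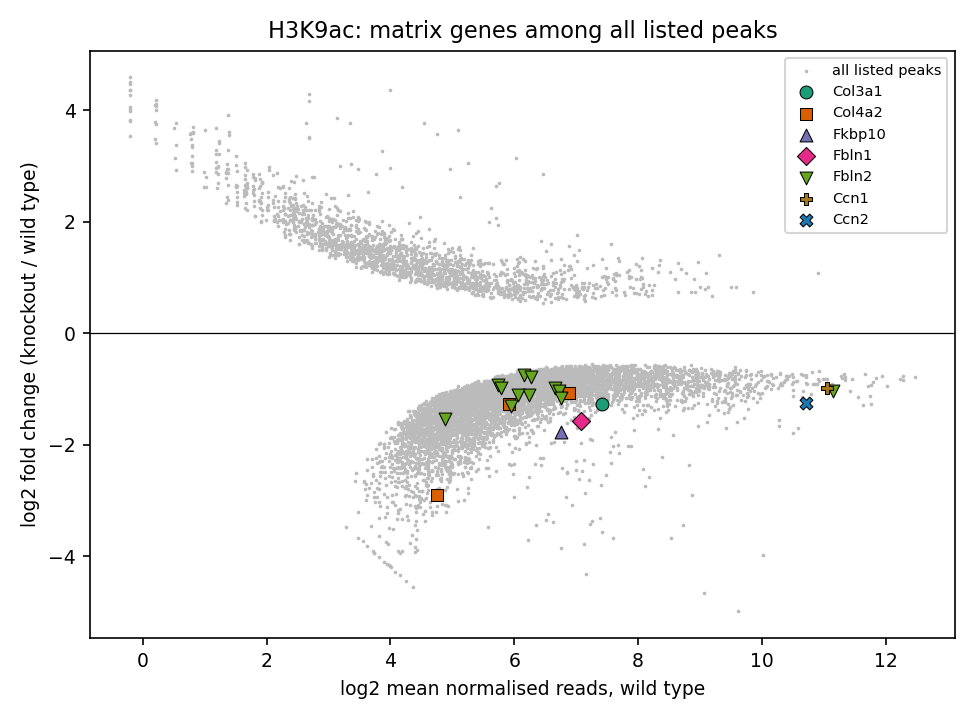
Log2 fold change of H3K9ac (knockout over wild type) against wild-type level (log2 mean normalised reads) for all 8115 listed peaks (grey dots) and the 20 peaks of the matrix genes (symbols by gene). All 20 lie below 0, and the start-site peaks of Fbln2, Ccn1 and Ccn2 lie at the right, with wild-type levels of 10.71 to 11.15.

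The DNA at a transcript start of 4 of these genes is shown because an H3K9ac peak covered the whole window there. The windows are RefSeq sequence of GRCm38.p6, reaching 250 bases before to 50 bases after a transcript start, and 5 of the 7 genes have one in the table used. For Fbln2 this transcript start lies downstream of the RefSeq gene start used for distances. The Fbln2 window begins after that gene start and shows no DNA before it. Capitals mark matches to any of 7 short motifs, on either strand, and adjoining or overlapping matches run together. The TEAD core, bound by the factors through which YAP acts, was searched as GGAATG. The GC box of Sp1 was searched as GGGCGG and the CCAAT box by the letters of its name. The TATA box was searched as TATAAA, and the half-site of SMAD factors was searched as GTCTG. The AP-1 site was searched as TGANTCA, and the CArG box of serum response factor is given by name. The windows were chr3:145649936-145650235 (minus strand) for Ccn1, chr1:45311288-45311587 (plus) for Col3a1, chr15:85205699-85205998 (plus) for Fbln1, the first of its 2 windows, and chr6:91212514-91212813 (plus) for Fbln2.
Ccn1: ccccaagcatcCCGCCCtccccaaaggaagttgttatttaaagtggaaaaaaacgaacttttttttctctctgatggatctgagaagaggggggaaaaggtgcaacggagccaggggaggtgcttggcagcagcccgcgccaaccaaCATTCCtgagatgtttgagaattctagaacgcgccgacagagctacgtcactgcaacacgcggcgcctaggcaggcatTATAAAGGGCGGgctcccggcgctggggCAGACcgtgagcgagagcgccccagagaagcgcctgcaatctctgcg
Col3a1: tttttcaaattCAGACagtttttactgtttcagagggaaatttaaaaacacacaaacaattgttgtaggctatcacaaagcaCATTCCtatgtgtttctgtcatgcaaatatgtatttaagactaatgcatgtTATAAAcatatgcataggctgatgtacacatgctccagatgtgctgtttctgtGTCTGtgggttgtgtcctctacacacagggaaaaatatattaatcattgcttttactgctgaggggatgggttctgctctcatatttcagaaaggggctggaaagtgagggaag
Fbln1: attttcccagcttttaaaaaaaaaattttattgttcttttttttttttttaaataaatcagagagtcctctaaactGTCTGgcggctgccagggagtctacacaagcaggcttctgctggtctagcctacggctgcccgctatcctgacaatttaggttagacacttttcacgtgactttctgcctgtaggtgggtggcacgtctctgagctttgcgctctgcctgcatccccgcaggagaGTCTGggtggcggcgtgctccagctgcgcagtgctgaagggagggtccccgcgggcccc
Fbln2: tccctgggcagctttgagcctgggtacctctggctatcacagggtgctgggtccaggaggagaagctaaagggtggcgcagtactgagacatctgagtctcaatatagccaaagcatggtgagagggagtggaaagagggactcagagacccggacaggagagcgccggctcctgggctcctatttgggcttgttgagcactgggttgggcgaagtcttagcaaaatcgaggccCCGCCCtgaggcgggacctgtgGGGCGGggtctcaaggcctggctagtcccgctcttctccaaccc

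The Ccn1 and Col3a1 windows shared 3 of the searched motifs and were unlike in base composition. Each held the SMAD half-site, the TEAD core (as its reverse complement, at −103 in Ccn1 and −168 in Col3a1, first base counted from the transcript start) and the TATA box (at −25 and −117). Of 32851 windows in the table, 14.7% held the TEAD core and 13.6% the TATA box. None of the other 4 windows of the matrix genes held the TEAD core or the TATA box. The window of Ccn1 had 57.0% G and C and 20 CpG dinucleotides, while that of Col3a1 had 37.7% and 0 CpG, beside medians of 52.7% and 7 over the table. Fbln1 had 12 CpG and Fbln2 10 CpG in the windows shown. The Col4a2 window had the most, with 73.7% G and C and 33 CpG, and no listed H3K9ac peak of Col4a2 overlapped it.

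The other motifs were found in 0 to 5 of the windows. Of the 6 windows of the 5 genes, 5 held the SMAD half-site, 4 the GC box and 1 the CCAAT box, beside 49.6%, 35.7% and 37.4% of all windows. The 2 windows of Fbln1 overlap and hold the same SMAD half-sites, which are counted for both, so the 6 windows are not independent. The AP-1 letters and the CArG box were in 0 of the 6, beside 7.81% and 1.63% of all windows. A match describes letters in the window and shows no binding.

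Fkbp10 assists procollagen folding, and its H3K9ac peak lay inside the gene and not over the gene start. The files annotate the peak (chromosome 11, 100422089 to 100424171) to the start of a short transcript. Measured from the RefSeq start of the 9.15 kb gene, it ran from 6.39 to 8.48 kb. The authors' deposited table gives 4.99 in knockout and 6.76 in wild-type cells, or 31.8 against 108 normalised reads. Fkbp10 was 3.41-fold lower in the knockout (log2 fold change −1.77, FDR 0.00645 in the authors' deposited table). Its unadjusted p (0.000105, the authors' deposited table) had rank 11 among listed H3K9ac peaks. Listed p-values begin at 0.000101, so this rank leaves out any peak of smaller p. The wild-type level per kb of the Fkbp10 peak was 52.0 normalised reads, below that of the 5 start-site peaks.

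P3h4, a component of an endoplasmic reticulum complex that modifies collagen, lies head to head with Fkbp10 and differed the other way. Its start lies 977 bases from the Fkbp10 start, on the minus strand, and its H3K9ac peak (chromosome 11, 100412035 to 100412852) ended 2.84 kb before the Fkbp10 start. The peak held 5.97 in knockout and 4.38 in wild-type cells in the authors' deposited table. P3h4 was 3.01-fold higher in the knockout (log2 fold change 1.59, FDR 0.0358 in the authors' deposited table). The 2 peaks of opposite direction lay on either side of both gene starts, 9.24 kb apart. No listed H3K9ac peak covered the Fkbp10 start itself. Of other neighbours within 50 kb, Jup had 2 listed H3K4me3 peaks, 24.3 and 26.8 kb from the Fkbp10 peak.

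Col4a2 encodes a chain of the basement membrane collagen IV, and none of its 3 H3K9ac peaks lay near the gene start. The first, in intron 4 of 47 (chromosome 8, 11381789 to 11383018), began 69.0 kb into the gene, with 5.83 in knockout and 6.89 in wild-type cells in the authors' deposited table (2.08-fold lower, FDR 0.0276). The second (chromosome 8, 11443514 to 11443868) is annotated to the promoter of a short transcript but began 131 kb from the RefSeq start of a gene 136483 bases long. It held 1.86 in knockout and 4.76 in wild-type cells, or 3.63 against 27.1 normalised reads, in the authors' deposited table (7.46-fold lower, FDR 0.0159). This was the largest fold of the 20 peaks and rests on the lowest knockout level among them. The third, downstream of the gene (chromosome 8, 11449930 to 11450772), held 4.65 in knockout and 5.91 in wild-type cells in the authors' deposited table (2.41-fold lower, FDR 0.0815). Of the 3 peaks, 2 passed and the one beyond the gene did not. The neighbour Rab20 had an intergenic H3K9ac peak 35.5 kb away, with 4.48 in knockout and 5.52 in wild-type cells (FDR 0.188, the authors' deposited table).

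Such positions were common among peaks annotated to promoters. Of 11 such peaks of the matrix genes, 5 lay within 3 kb of the RefSeq gene start and 6 farther, near internal transcripts. Over the whole table, 47.7% of 3280 promoter-annotated H3K9ac peaks with a matched symbol lay farther than 3 kb.

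Fbln2 held 12 peaks over 62368 bases, from its start to a peak just beyond its end, with none listed between 21.8 and 39.5 kb. Only 6 of 5911 genes with a listed H3K9ac peak had 12 or more, and 76.5% of genes had 1. The 11 peaks beyond the start held 3.35 to 5.69 in knockout and 4.89 to 6.75 in wild-type cells in the authors' deposited table, with a median log2 fold change of −1.04. That median was close to the −1.03 of the start-site peak, which held 73.8% of the gene's listed reads in knockout and 73.9% in wild-type cells, computed from the authors' deposited table. The strong start-site peak and the weaker ones beyond it thus had similar fold changes.

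The fold differed from peak to peak along Fbln2. The smallest difference was in intron 1 (chromosome 6, 91228447 to 91229179), with 5.40 in knockout and 6.15 in wild-type cells in the authors' deposited table (1.67-fold lower, unadjusted p 0.0478). The largest was the intergenic peak after the gene (chromosome 6, 91274352 to 91274720), with 3.35 in knockout and 4.89 in wild-type cells in the authors' deposited table (2.91-fold lower, FDR 0.125). One Fbln2 peak passed, at 46.1 kb (chromosome 6, 91258522 to 91260010), with 5.59 in knockout and 6.75 in wild-type cells in the authors' deposited table (2.22-fold lower, FDR 0.0273). Peaks at 52.2 and 53.4 kb had FDRs of 0.0508 and 0.0520 in the authors' deposited table, just past the threshold. The lower values went on beyond the gene: all 4 H3K9ac peaks annotated to its upstream neighbour 4930402H05Rik, the nearest of them 128 bases away, were lower in the knockout, by 1.51-fold to 1.92-fold in the authors' deposited table, with FDRs of 0.0717 to 0.314.

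**Figure D3:**
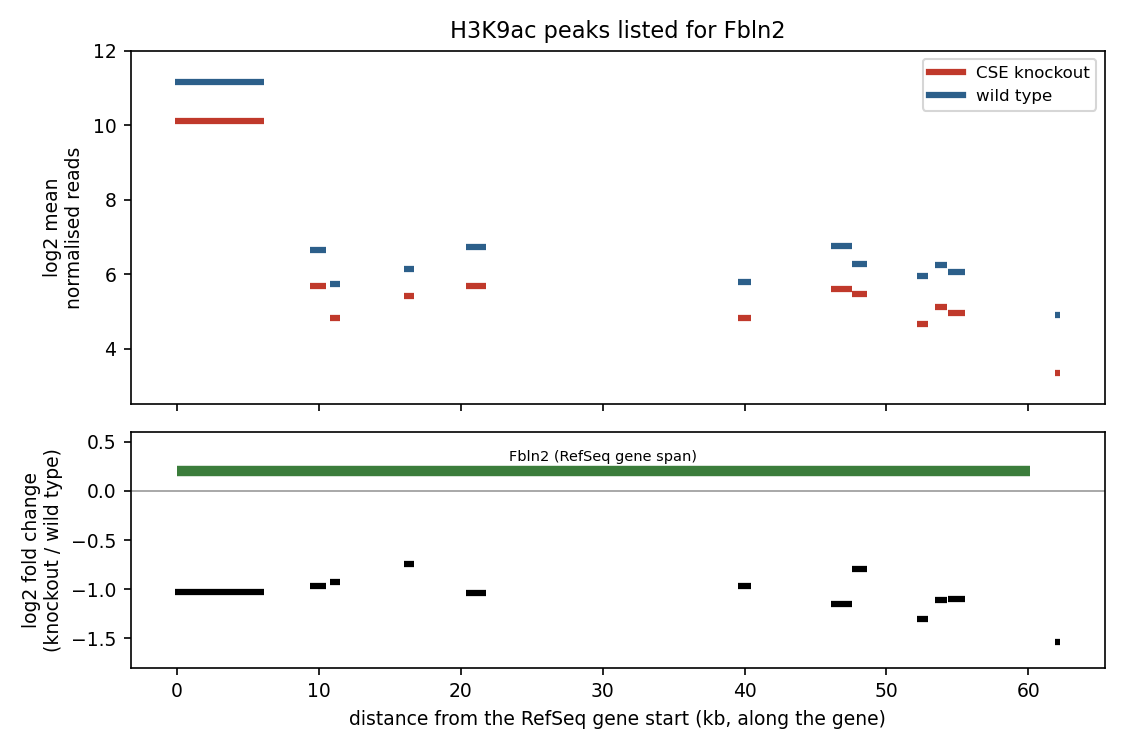
The 12 H3K9ac peaks listed for Fbln2, each drawn from its start to its end in kb from the RefSeq gene start. The upper panel gives the level in CSE knockout and wild-type cells (log2 mean normalised reads), the lower the log2 fold change of knockout over wild type, which lies between −1.54 and −0.74 in all 12, with the gene span as a green bar.

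H3K4me3 was listed at 1 of the 7 genes. The Ccn1 peak of this mark (chromosome 3, 145647184 to 145649841) lay wholly inside the Ccn1 H3K9ac peak, covered 88.2% of the gene and began 144 bases after the start. It made up 37.1% of the H3K9ac peak's length and did not overlap the promoter window shown. The H3K4me3 table gives no level, fold change or direction, so none can be stated for Ccn1. The other 6 genes have no listed H3K4me3 peak.

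H3K9me3 was listed at 2 of the 7 genes, far from their starts, in opposite directions and without passing. At Fbln1 an intron 8 peak (chromosome 15, 85233594 to 85234068) held 11.5 normalised reads in knockout and 1.01 in wild-type cells from the authors' deposited table (log2 values 3.52 and 0.01, unadjusted p 0.0141, FDR 1). The wild-type value lay near the lowest of that table, so the size of the difference depends on that floor. At Col3a1 an intergenic peak (chromosome 1, 45271972 to 45272398), 39140 bases before the gene, held 1.43 in knockout and 4.14 in wild-type cells in the authors' deposited table (unadjusted p 0.0488, FDR 1). Over all listed peaks of H3K9me3, 61% were higher and 39% lower, and 0 had an FDR under 0.05. These peaks lay 26.8 kb (Fbln1) and 38.6 kb (Col3a1) from the H3K9ac peaks of the same genes. Wnt7a, a neighbour of Fbln2, had an H3K9me3 peak 42.7 kb from the nearest Fbln2 peak, with 2.15 in knockout and 5.00 in wild-type cells (FDR 1, the authors' deposited table).

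The wider matrix was described through 7 lists, which hold 124 genes including the 7. Of these, 37 had a listed H3K9ac peak, and taking the peak of smallest p per gene, 31 were lower and 6 higher in the knockout. For scale, 5911 genes had a listed H3K9ac peak, and 27025 genes have a promoter window. Without the 7 genes it was 24 lower and 6 higher, or 80.0% lower, beside 75.8% of all 5911 listed genes. The median log2 fold change of these 30 genes was −0.92, beside −1.01 over all listed genes. The wider matrix thus split much as the table did, and 7 of the 30 had an FDR under 0.05, beside 20.7% of all listed genes.

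Fibril collagens other than Col3a1 had 4 lower genes and 1 higher. Col5a1, which encodes a type V collagen chain that helps start fibrils, was lower in the knockout, at 2.17 in knockout and 4.81 in wild-type cells at a distal peak in the authors' deposited table (FDR 0.0197). This knockout level is low beside the median of 5.01 over all listed peaks. A stronger distal Col5a1 peak had 6.27 in knockout and 7.40 in wild-type cells (FDR 0.0261, the authors' deposited table). Col2a1 and Col5a3 had 3.18 and 3.80 in knockout against 4.67 and 5.18 in wild-type cells in the authors' deposited table, with FDRs of 0.210 and 0.285. Col1a2, a chain of type I collagen, had 4.65 in knockout and 2.44 in wild-type cells in the authors' deposited table (FDR 0.0851). Its peak is intergenic, 8852 bases past an annotated start, and the wild-type level is low beside the median of 5.61 over all listed peaks. In the basement membrane list Col4a1, which lies head to head with Col4a2, had 5.90 in knockout and 6.59 in wild-type cells in the authors' deposited table (FDR 0.244). This Col4a1 peak (chromosome 8, 11277965 to 11278876) is annotated to a promoter, 780 bases from an annotated start. It does not lie at the Col4a2 start, whose window is at 11312555 to 11312854. Col18a1 had 4.70 in knockout and 5.84 in wild-type cells (FDR 0.102, the authors' deposited table). The other collagens listed were Col6a1, Col6a2, Col12a1 and Col17a1, all with lower knockout values and FDRs of 0.101 to 0.177 by the authors' deposited table.

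In the fibulin and CCN lists every gene with a listed H3K9ac peak had lower knockout values at each of them, beside 75.8% of all listed genes lower by the peak of smallest p. Of these genes 4 (Fbln1, Fbln2, Ccn1 and Ccn2) were chosen by these differences, which leaves 3 in the fibulin list and 2 in the CCN list. Among fibulins, Fbln5, needed for elastic fibre assembly, had 9.14 in knockout and 10.14 in wild-type cells in the authors' deposited table (FDR 0.118). Efemp2 (fibulin 4) had 5.36 in knockout and 6.49 in wild-type cells (FDR 0.0958), and Fbln7 6.33 and 7.30 (FDR 0.127), in the authors' deposited table. With Fbln1 and Fbln2 the list had 5 of 21 genes listed, and the 2 with an FDR under 0.05 were these chosen genes. In the CCN family Ccn5 was lower in the knockout, at 6.03 in knockout and 7.09 in wild-type cells at a distal peak in the authors' deposited table (FDR 0.0146). Ccn4 had 5.75 in knockout and 6.63 in wild-type cells (the authors' deposited table, FDR 0.0852), and the other 2 family members have no listed peak.

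Collagen folding and crosslinking genes differed in both directions, with 7 lower and 3 higher. Loxl1, a lysyl oxidase of elastic fibres, was lower, at 4.45 in knockout and 6.05 in wild-type cells in the authors' deposited table (FDR 0.0115). Adamts14, which removes procollagen propeptides, was lower too, at 5.61 in knockout and 6.63 in wild-type cells at a distal peak in the authors' deposited table (FDR 0.0368). Lox, the lysyl oxidase that crosslinks collagen and elastin, was higher, at 5.83 in knockout and 4.51 in wild-type cells in the authors' deposited table (FDR 0.0322). This Lox peak is annotated to an exon but lies 33718 bases before the annotated start of Lox. Pcolce, an enhancer of procollagen processing, was the third higher gene besides Lox and P3h4, at 5.03 in knockout and 2.84 in wild-type cells in the authors' deposited table (FDR 0.0407), and was picked out after its value was seen. Matrix glycoproteins and proteoglycans had 3 lower and 2 higher genes, none with an FDR under 0.05, and Fn1 (fibronectin) had 10.22 in knockout and 11.13 in wild-type cells at its promoter in the authors' deposited table (FDR 0.128). Fmod, Lum and Hspg2 had 4.24, 5.92 and 3.52 in knockout against 1.37, 4.90 and 5.08 in wild-type cells in the authors' deposited table. The fold of this Fmod peak rests on a low wild-type level, and Fmod went both ways. Its other 2 H3K9ac peaks were lower, with log2 fold changes of −0.96 and −1.18 (FDRs 0.206 and 0.192, the authors' deposited table).

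**Figure D4:**
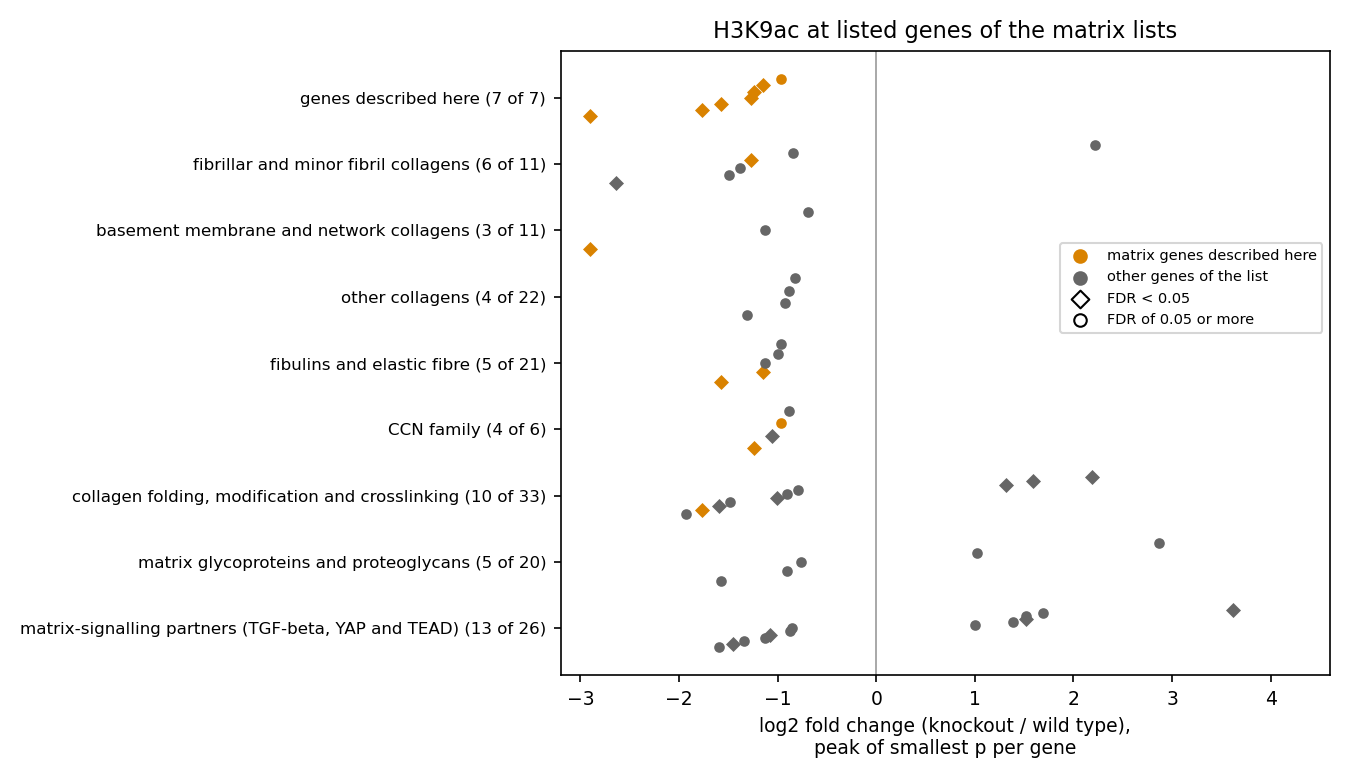
Log2 fold change of H3K9ac (knockout over wild type) at the peak of smallest p of each listed gene, 1 point per gene, by list, with the number of genes listed of all in the list. Orange points are the 7 genes described here, and diamonds have an FDR under 0.05: the fibulin and CCN lists, with 4 chosen genes among their 9, lie below 0, while the folding list has 3 points above it.

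Genes with the most similar pair of levels were sought among 2439 other genes with a promoter H3K9ac peak, by the distance between the log2 values of both genotypes, taking each gene's promoter-annotated peak of smallest p (for Fbln2 the one at 46.1 kb). The nearest were Mcam (to Col3a1), Atp13a1 (Col4a2), Terb1 (Fbln1), Coq9 (Fbln2), Stk11ip (Fkbp10), Tbx18 (Ccn1) and Lpp (Ccn2). The distance was 0.01 for Coq9 to 0.19 for Stk11ip. With only 2 group values per gene, other genes can lie about as near, though this varied by gene. Counting the nearest gene itself, 10 genes were within 0.1 of Fbln2, 5 of Col3a1 and 2 of Col4a2. The count was 1 each for Fbln1, Ccn1 and Ccn2, and 0 for Fkbp10.

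Markers of cell identity were looked up in the same H3K9ac table. Of 11 smooth muscle markers 7 had a listed peak, against 2 of 8 fibroblast, 2 of 8 endothelial, 2 of 8 leukocyte and 1 of 6 adipocyte markers. For scale, 5911 genes had a listed H3K9ac peak, and 27025 genes have a promoter window. Whether any marker list was listed more often than other genes was not tested. Of the smooth muscle markers 2 had an FDR under 0.05, in opposite directions: Lmod1, an actin regulator, was lower, with 6.35 in knockout and 7.58 in wild-type cells, and Smtn, a contractile marker, was higher, with 7.42 in knockout and 6.46 in wild-type cells (FDRs 0.0335 and 0.0435, the authors' deposited table). Tagln had 3.91 in knockout and 5.37 in wild-type cells, and Synpo2 3.48 in knockout and 5.06 in wild-type cells (FDRs 0.0793 and 0.0865, the authors' deposited table). By the peak of smallest p, smooth muscle markers had 6 lower genes and 1 higher, fibroblast 2 lower, endothelial 1 lower and 1 higher, leukocyte 2 higher and adipocyte 1 lower, beside 75.8% lower over all listed genes. Acta2, counted as lower and picked out after its values were seen, had peaks in both directions. Their log2 fold changes were −0.60 at an exon peak and 0.96 at an intergenic peak (FDRs 0.236 and 0.286, the authors' deposited table). The leukocyte genes were Cd14, with 10.34 in knockout and 9.50 in wild-type cells, and Aif1, with 6.05 and 5.32 (FDRs 0.231 and 0.322, the authors' deposited table). The table lists only peaks that differ, so it does not show which cell types were present, and the part of cell makeup in the matrix results was not tested.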

How the data were processed

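ChIP-seq libraries of 36 samples (18 immunoprecipitated, 18 input) were processed by the authors. CASAVA 1.4 and mm9 appear in the submitters' processing notes. For the aligner, the peak caller and the program behind the differences, a name was not given in the sources used here. Per the file headers, the authors' deposited tables give a concentration by genotype (taken as log2 mean normalised reads, since the deposited log2 fold change equals knockout minus wild type within 0.01), their log2 ratio, and for each test the p-value and FDR, of every selected H3K9ac and H3K9me3 peak; how they normalised is not given. Gene positions in the files overlapped those of GRCm38.p6 for 99.7% of 4986 matched symbols (H3K9ac), so peak positions, printed as deposited, are taken to be GRCm38 too, although the notes name mm9, and 17.2% of H3K9ac peaks lie over an annotated start. Replicates could not be compared, and depth is unknown.

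Peaks were taken by gene symbol and counted by the direction of the deposited fold change, with no test of the chosen genes. Linear reads are 2 to the power of the deposited log2 value, divided by peak length for levels per kb. Peak overlap of at least 1 bp used bedtools 2.31.1; other steps used Python 3.11.15, pandas 2.3.3 and numpy 2.4.6. The overlap and motif functions were tested on simulated data. The genes, lists and tests were chosen with earlier results of these data known. Named genes are all 7, up to 4 others per list by smallest p, the nearest gene by level, and neighbours with a peak within 50 kb. Alternatives were promoter peaks only, a start within 1 kb, p under 0.01, FDR under 0.05, both log2 levels at least 3, 1 peak per gene, other overlap rules and leaving out Fbln2.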

Additional observations from a re-analysis of the deposited data

How the results depend on the processing

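All 7 matrix genes had a lower H3K9ac peak, and none a higher one, with promoter-annotated peaks only and with both log2 levels at least 3. It was 6 of 7 within 1 kb of an annotated start (not Col4a2), at p under 0.01 and at FDR under 0.05 (not Ccn1). Annotated starts include those of internal transcripts, as at Fkbp10, and 5 of the 7 genes had a peak over the RefSeq gene start. The median log2 fold change of −1.10 became −1.27 with 1 peak per gene, −1.24 with promoter peaks, −1.10 with both levels at least 3 and −1.27 without Fbln2, an alternative chosen after seeing the data. The 2 genes with H3K9me3 became 0 with promoter peaks only, p under 0.01, FDR under 0.05 or both levels at least 3. In the wider lists 31 lower genes became 20 at p under 0.01 and 10 at FDR under 0.05, and 6 higher genes became 2 with promoter peaks only and 3 at FDR under 0.05, since each setting counts fewer peaks. The shared H3K9ac and H3K4me3 peak became 0 when at least 0.5 of each peak had to overlap. The 77.2% of lower H3K9ac peaks was 86.4% on the chromosome of Col3a1, 85.0% of Col4a2, 86.7% of Fbln1, 84.0% of Fbln2, 52.5% of Fkbp10, 87.2% of Ccn1 and 89.4% of Ccn2; the cause was not tested. No paired analysis was possible because no value per sample was analysed, and replicates could not be left out for the same reason. Another normalisation could not be run.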

Other observations

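Genes that signal between matrix and nucleus had H3K9ac differences in both directions. Of 26 genes of the TGF-beta and YAP pathways, 13 had a listed H3K9ac peak, as did 5911 genes in all, where 27025 genes have a promoter window. By the peak of smallest p, 7 of the 13 were lower and 6 higher in the knockout, beside 75.8% lower over all listed genes. Tead1, a DNA-binding partner of YAP, was lower, at 5.18 in knockout and 6.63 in wild-type cells in the authors' deposited table (FDR 0.0258). Its peak is annotated to a promoter, 743 bases from an annotated start, and its distance from the RefSeq gene start was not looked up. Lats2, a kinase that restrains YAP, was lower as well, at 5.33 in knockout and 6.41 in wild-type cells in the authors' deposited table (FDR 0.0436). Tgfbr2, a TGF-beta receptor, was higher at an intron peak, at 4.43 in knockout and 0.81 in wild-type cells in the authors' deposited table (FDR 0.0396), a fold that rests on a low wild-type level. Itgb5, an integrin chain, was higher at its peak of smallest p, at 5.93 in knockout and 4.41 in wild-type cells in the authors' deposited table (FDR 0.0234), but it is among 2 genes of the list with peaks in both directions.

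H3K9me3 peaks were listed at 12 genes of the 7 matrix lists, of which 8 were higher and 4 lower in the knockout, beside 61% higher over all listed H3K9me3 peaks. The authors' deposited table gives FDR 1 for all of them. In all, 3 genes had listed peaks of both marks: Col3a1, Fbln1 and Lox. Lox had higher H3K9ac and higher H3K9me3, both at peaks before its annotated start. The H3K9me3 peak, annotated to an intron but 17711 bases before that start, held 3.59 in knockout and −0.45 in wild-type cells. The wild-type value is the lowest of the H3K9me3 levels in the authors' deposited table.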
